A study of Mus musculus with 88 samples.

Results

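The data followed what became of protein that dendritic cells had made before they met lipopolysaccharide (LPS, the cell wall component of Gram-negative bacteria that Toll-like receptor 4 senses), with stimulated and mock-treated cells compared over the same hours. The cells came from bone marrow cultures of female C57BL/6J mice grown with GM-CSF and were labelled with the medium form (M) of arginine and lysine. At 0 h they were pooled and moved to the heavy form (H), so that M marked old protein and H new protein, and on culture day 9 they were given LPS at 100 ng per ml or no stimulus, which the labels call MOCK. Each lysate was mixed with unlabelled cells (L) as a common reference, and the M/L ratio of a protein in a run is its old form against that reference. The comparison used 32 of the 88 samples of the series, the M channel of the trypsin runs at every full hour from 1 to 6 h and at 9 and 12 h, with 2 replicates at each time under each treatment (16 LPS and 16 mock runs). Whether the replicates came from separate cultures is not in the labels, and p-values therefore reflect only how far these samples vary, which may be technical variation.

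A cell loses old protein by degradation in the proteasome or the lysosome, by secretion, and by cleavage of membrane proteins at the surface (shedding), and growth dilutes what remains. M/L falls with all of these and cannot tell them apart. In myeloid cells a well known case is the surface protease ADAM17, which cuts TNF and the CSF-1 receptor off the membrane and which needs the inactive rhomboid iRhom2 (Rhbdf2) to leave the endoplasmic reticulum and to act.

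Each run's M/L ratios were divided by the run's median over the 2683 proteins measured in all 32 runs, so a scaled M/L of 1 is the median old protein of that run, and a slope of log2 scaled M/L on time is a rate of change relative to that median protein, not an absolute decay rate. A run gave M/L for 3661 to 4338 proteins, based on 78766 to 108223 peptide pairs in total and on 8 to 10 pairs for the median protein. Before scaling, the run median of log2 M/L lay between -0.88 and -0.63 in replicate 1 and between -0.35 and -0.12 in replicate 2, except for the LPS run at 12 h of replicate 2, which stood apart at 0.34. The median share of M in M plus H in that run was 82.1%, equal to that of the mock run of the same time and number. In the 0 h runs this share was 87.3% and 88.1%, so some H signal was present from the start. That signal limits the M share and H/L as readouts of new protein, and its source was not tested. The unscaled run median fell by 0.020 log2 units per h under mock. Under LPS its slope was 0.0055, and -0.031 without the run that stood apart. The difference of 0.026 between treatments had p = 0.63 in a two-sided permutation test (100000 permutations of the treatment labels within each time). The permutations moved labels across the 2 replicates, whose medians lay far apart. The test thus ignored the pairing of the runs and could not show a small difference between treatments. Among the deposited protein groups, all 14 listed markers of dendritic cells and macrophages were present, and all 15 granulocyte markers, against 3 of 9 for platelets, 1 of 8 for erythroid cells, 1 of 12 for lymphocytes and 3 of 9 for stromal cells. The granulocyte markers held 1.37% to 2.87% of a mock run's summed M intensity and 1.50% to 2.62% of an LPS run's, so proteins of granulocytes were part of these cultures.

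**Figure D1:**
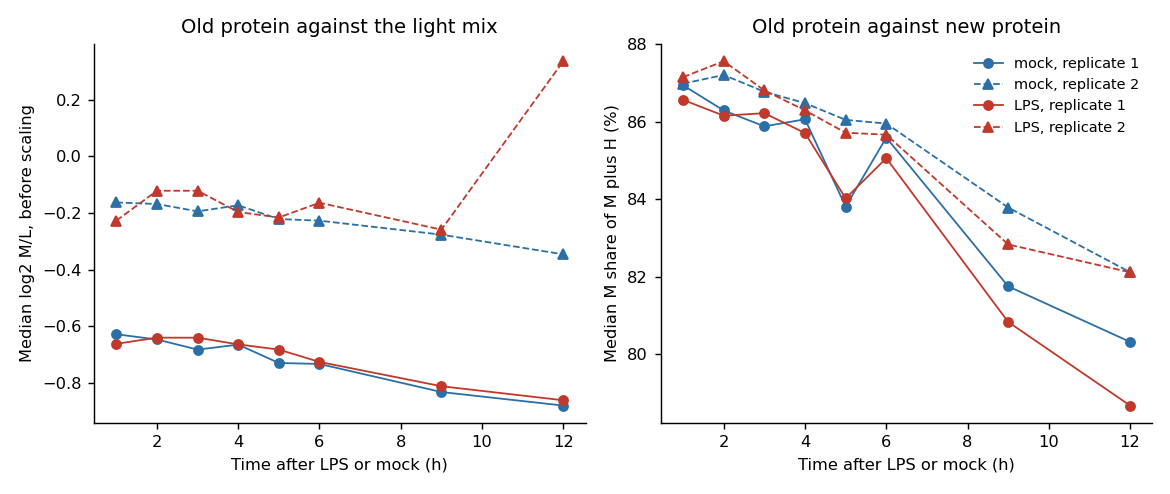
Median log2 M/L before scaling (left) and median share of M in M plus H in percent (right) against time in h, with 1 point per run; red, LPS; blue, mock; circles, replicate 1; triangles, replicate 2. The LPS run at 12 h of replicate 2 lies at 0.34 on the left, while on the right it meets the mock run at 82.1%.

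Of 3346 proteins tested, the slopes of 375 (11.2%) differed between LPS and mock (limma, Benjamini-Hochberg adjusted p under 0.05 over all proteins). The slope was lower after LPS, meaning that old protein was lost faster relative to the median protein, for 230 (6.87%) and higher for 145 (4.33%). With the replicate number as a block the higher group grew to 232 (6.93%) and the lower one to 325 (9.71%). With M plus H in place of M as the scaling base, 320 were lower and 78 higher. The median difference of the lower group was -0.041 log2 units per h, which over the 11 h from the first to the last run amounts to a 0.732-fold level, and that of the higher group was 0.030, a 1.26-fold level. Of the 227 lower and 144 higher proteins that could be fitted in each replicate alone, 227 and 144 had the same sign in both. The calls were made on these same runs, so this agreement was largely fixed by the selection and is no separate replication. At 9 and 12 h the 4 LPS values lay below the 4 mock values without overlap for 395 of the 3346 (11.8%) and above them for 300 (8.97%). The spread of all slopes under the 2 treatments is drawn in the plot of LPS slope against mock slope.

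**Figure D2:**
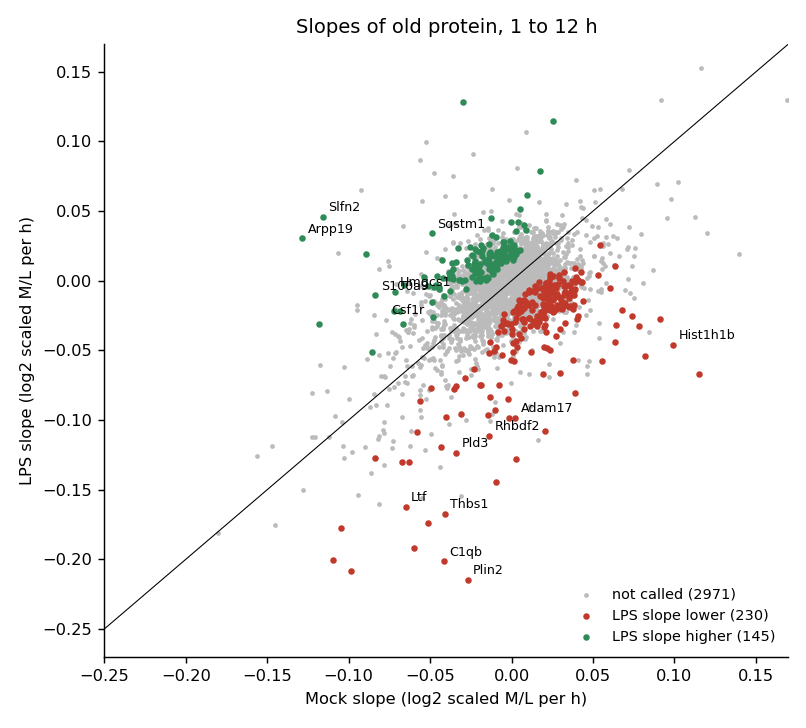
Slope of log2 scaled M/L per h from 1 to 12 h under LPS (y axis) against mock (x axis), with 1 point per protein; red, LPS slope lower (230); green, LPS slope higher (145); grey, not called (2971); line, equal slopes. The axes leave out 2 proteins, neither of them called. Plin2, C1qb, Thbs1 and Ltf lie far below the line, while Hist1h1b lies to the right, with a positive slope under mock.

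Many of these differences were not a steeper fall from a common start. Under mock, 182 of the 230 proteins with a lower LPS slope had a slope above 0 on the scaled ratio, and 110 of them also on the unscaled one (453 of all 3346 tested), although M was no longer supplied after the switch. Of the 145 with a higher LPS slope, 1 had an unscaled mock slope above 0. The share of M in M plus H, which depends on neither the reference nor the run median, fell faster after LPS for 36 of the 225 proteins with a lower M/L slope that had this share, and more slowly for 7. Over all 3170 proteins with both forms it fell faster for 409 (12.9%) and more slowly for 54 (1.70%). This share falls with the making of new protein as well as with loss of the old, so it is no measure of loss alone. Among 44 interferon-stimulated proteins it fell faster for 39, with a median H/L slope difference of 0.27. Without any scaling of the runs 2 proteins passed the test. With the replicate number as a block and without the LPS run at 12 h of replicate 2, 277 passed unscaled, among them 231 of the 375, in the same direction.

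The treatments had also crossed. On the scaled ratio, old protein at 0.5 h, before the times used for the slopes, was higher after LPS than under mock for 209 of the 230 proteins with a lower slope, and at 1 h for 189 of them, with a median LPS minus mock over the 230 of 0.21 and 0.18 log2 units at these times. By 2 h it was higher for 74 of the 230, at 9 h for 1 and at 12 h for none, with a median of -0.26 at 9 h and -0.35 at 12 h. The proteins with a higher slope ran the other way: 135 of the 145 were lower after LPS at 1 h and 143 were higher at 12 h. Both groups were called on the runs from 1 to 12 h, so their order at these times was largely fixed by the selection. Of the times given here, only 0.5 h lay outside it, where 129 of the 145 were lower after LPS. Over all proteins measured at 1 h, 1620 were higher and 1724 lower after LPS. Without the 1 h runs 126 slopes passed, 83 lower and 43 higher, of which 121 were among the 375 in the same direction, and none of the 375 changed sign. The cause of the early difference was not tested.

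Of the sheddase machinery, iRhom2 and the protease Adam17 had lower slopes after LPS. Old Rhbdf2 (iRhom2) stood at 0.81 and 0.62 in the LPS replicates at 1 h, at 0.37 and 0.44 at 3 h, at 0.29 and 0.22 at 6 h, at 0.25 and 0.22 at 9 h and at 0.27 and 0.31 at 12 h. The mock runs lay from 0.76 to 1.08 (median 0.86), and at each of the 8 times both LPS runs were below both mock runs. The slope difference was -0.098 ± 0.029 log2 units per h (SE; adjusted p = 0.025, limma). At 0.5 h the LPS replicates were still at 1.01 and 1.03, beside 0.84 and 0.98 under mock. While the old form fell, the new form rose faster after LPS, with an H/L slope difference of 0.30 ± 0.08 (adjusted p = 0.016).

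Old Adam17, the protease that iRhom2 escorts, went the same way. It stood at 0.43 and 0.56 after 1 h of LPS, at 0.25 and 0.27 at 6 h and at 0.21 and 0.21 at 12 h, and the mock runs lay from 0.34 to 0.70 (median 0.60). At every time but 2 h the LPS runs measured were below both mock runs, with 1 LPS value missing at 3 h. The slope difference was -0.100 ± 0.033 (adjusted p = 0.049), close to the threshold, and it rested on a median of 3 peptide pairs per run. The mean difference over the 8 matched times, a measure added after the slopes were seen because some losses came before 1 h, was -0.92 ± 0.13 log2 units for Adam17 (adjusted p = 3.6e-05) and -1.33 ± 0.11 for Rhbdf2 (adjusted p = 5.7e-09), where 236 of 3346 proteins were lower (7.05%) and 128 higher (3.83%). With the deposited normalised ratio that split was 292 lower and 578 higher.

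Of the 13 proteins listed around iRhoms and ADAM sheddases, 6 had a protein group and 4 could be tested. Of these 2 had a lower slope and none a higher one, where 6.87% of all proteins were lower. The other tested members were Adam10, a related sheddase (slope difference -0.042 ± 0.042, adjusted p = 0.57), and Frmd8, the cytoplasmic partner of iRhoms (-0.016 ± 0.007, adjusted p = 0.12), whose mean difference of -0.11 passed the test (adjusted p = 0.0047). Adam8 and Adam9 had M/L in 2 and 8 of the 32 runs and were not tested. The call of Adam17 was fragile: it was lost under 19 of 25 alternatives, among them leaving out either replicate or the LPS run at 12 h of replicate 2, with the same sign each time. That of Rhbdf2 was lost without either replicate, without scaling, without the 1 h runs and with times from 3 h on, the last with a difference of -0.047, since most of its fall came earlier.

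Csf1r, the receptor for CSF-1 and a substrate of ADAM17, was lower after LPS but not by its slope. Old Csf1r was already at 0.34 and 0.24 in the LPS replicates at 0.5 h, against 1.53 and 1.45 under mock, and the 0 h samples stood at 1.59 and 1.69. The mean difference over 1 to 12 h was -1.48 ± 0.23 log2 units (adjusted p = 0.00013), while the slope difference was 0.049 ± 0.075 (adjusted p = 0.72). Under mock the receptor turned over quickly by itself, from 1.41 and 1.20 at 1 h to 0.50 and 0.54 at 6 h, and then stayed there.

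The LPS values of Csf1r did not run smoothly in either replicate. They were 0.13 and 0.14 at 2 h, 0.59 and 0.44 at 3 h, 0.78 and 0.41 at 4 h, 0.0893 and 0.15 at 6 h, 0.49 and 0.55 at 9 h and 0.18 and 0.0974 at 12 h. The LPS runs were below both mock runs at every time but 4 h, where they overlapped, and at 3 and 9 h the gap was small. Both replicates moved together at these times. When the 0 and 0.5 h runs were added with a common starting level, the slope difference of Csf1r turned to -0.19.

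Surface proteins that ADAM10 or ADAM17 are known to cut, Csf1r among them, gave different pictures by different measures. Of 22 listed, 13 had a protein group and 8 were tested. They held 1 higher slope and none lower, where 4.33% of all proteins were higher and 6.87% lower. Their median difference was -0.0076 (0.00097 over all 3346 proteins). The protein with the higher slope was Notch2, a receptor cut by ADAM10 on ligand binding, with a difference of 0.087 ± 0.027 (adjusted p = 0.037). At 6 h old Notch2 was at 0.64 and 0.54 after LPS and at 0.44 and 0.36 under mock. At 12 h it was at 0.74 and 0.43 after LPS, with 0.30 in the 1 mock run that measured it, so its mock slope leans on replicate 2. The call was lost under 10 of 20 alternatives, with the same sign each time. Lrp1, an endocytic receptor, had a slope difference of -0.023 that passed with the replicate block (adjusted p = 0.019) and not without it (0.065), and with Csf1r it was 1 of 2 members lower on average over the matched times (-0.14, adjusted p = 0.0073). The 3 members higher on average were Notch2, Icam1 and Cd44. Icam1 and Cd44, adhesion proteins of the same list, were higher on average over the matched times (0.19, adjusted p = 0.0096, and 0.18, adjusted p = 0.026), with slope differences of -0.022 and -0.0012 that did not pass (adjusted p = 0.28 and 0.97). The share of M in M plus H fell faster after LPS for 4 of the 8 (12.9% over all proteins), Icam1, Cd44, Alcam and Notch2, and more slowly for Lrp1. This share also falls when more new protein is made, and the median H/L slope difference of the list was 0.086 (0.0053 over all proteins).

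**Figure D3:**
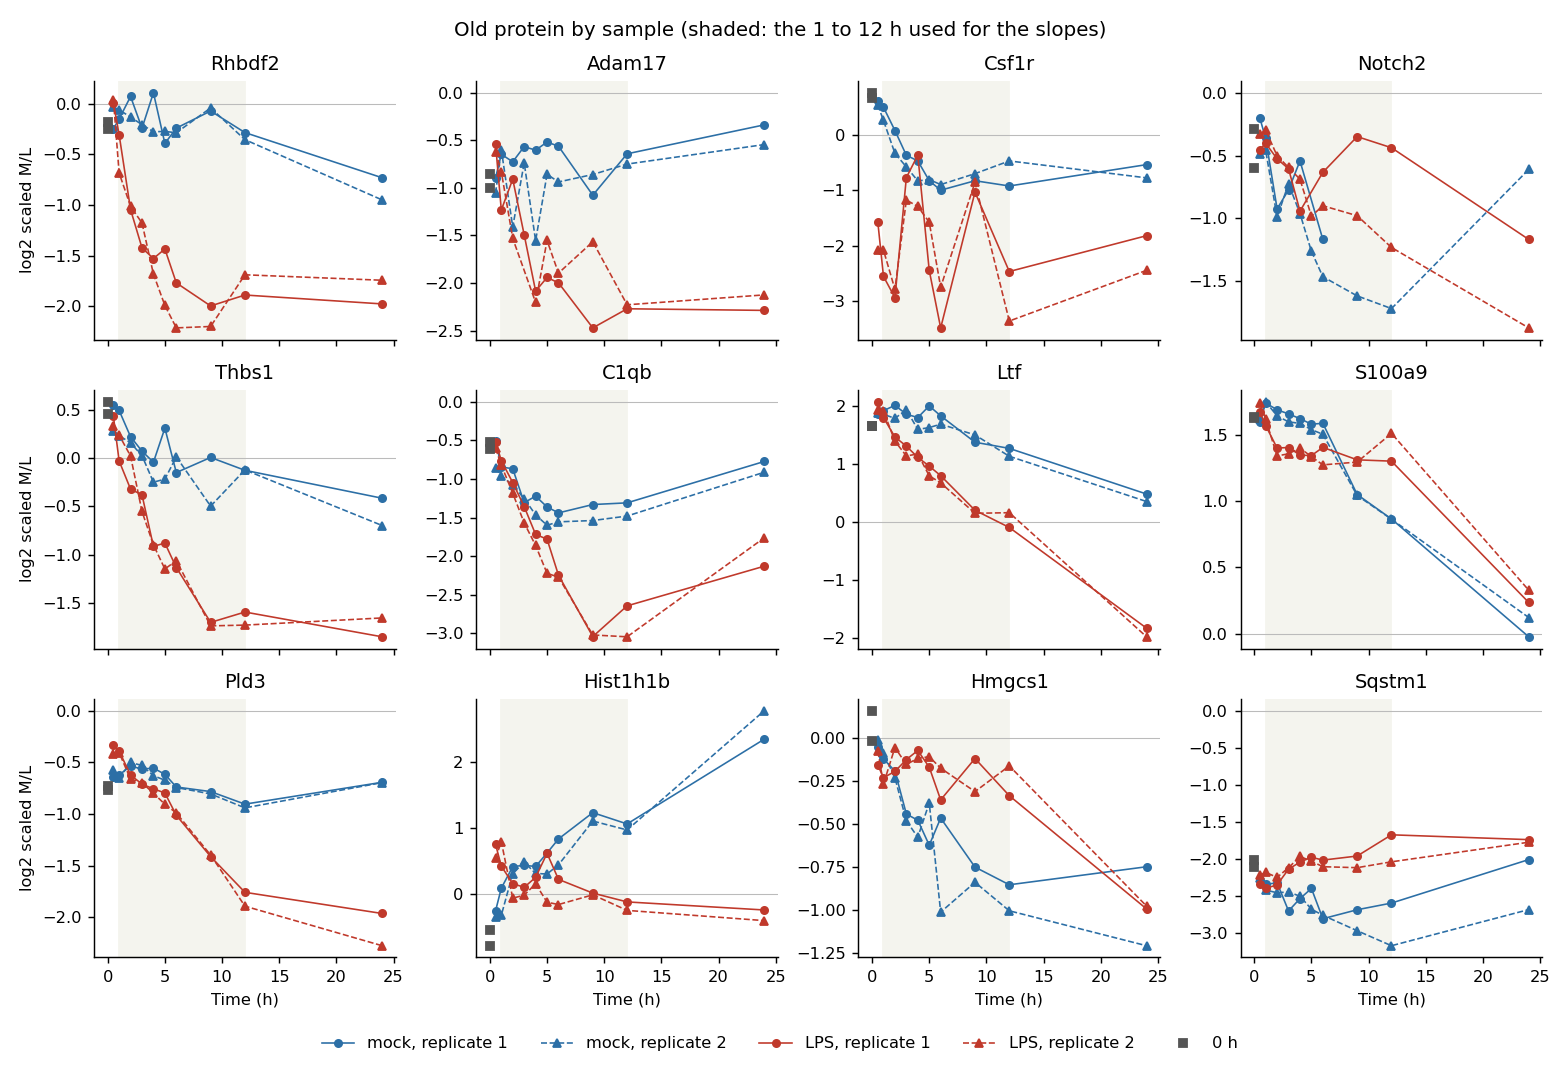
log2 scaled M/L (y axis) against time in h for 12 proteins, with 1 point per sample; red, LPS; blue, mock; circles, replicate 1; triangles, replicate 2; squares, 0 h; shaded, the times used for the slopes; each panel has its own y range. Rhbdf2, Adam17, Thbs1, C1qb, Ltf and Pld3 are lower after LPS than under mock at 6, 9 and 12 h, Csf1r is already lower at 0.5 h, S100a9 crosses over between 6 and 9 h, and Hist1h1b rises under mock.

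Several secreted proteins had lower slopes. Of 45 listed, 32 had a protein group and 18 were tested. Of these 9 had a lower slope (6.87% over all proteins) and none a higher one, with a median difference of -0.044 per h. Less the median of all proteins, it was -0.045 with and without the run factor, which shifts all proteins nearly alike. The run factor thus could not test this distance. With the deposited normalised ratio the distance was -0.049. Thbs1 (thrombospondin 1, a matrix glycoprotein secreted by macrophages and platelets) stood at 0.98 and 1.18 after 1 h of LPS, 0.46 and 0.48 at 6 h and 0.33 and 0.30 at 12 h. The mock runs went from 1.41 and 1.17 to 0.92 and 0.92 over the same time, and from 2 h on both LPS runs were below both mock runs. The slope difference was -0.127 ± 0.023 (adjusted p = 0.0003). The group named Thbs1 rested on 1 unique peptide, although a run held a median of 33 peptide pairs for it.

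C1qb, a chain of the complement initiator C1q, had the largest difference of the secreted group. Its old form fell under both treatments, from 0.59 and 0.57 at 1 h to 0.16 and 0.12 at 12 h after LPS and from 0.56 and 0.51 to 0.40 and 0.36 under mock. The treatments overlapped at 2 h, and from 3 h on both LPS runs were below both mock runs. The difference was -0.160 ± 0.025 (adjusted p = 6.5e-05). Cfp (properdin, which stabilises the alternative complement convertase) likewise fell under both, to 0.21 and 0.18 and 0.46 and 0.41 at 12 h (-0.091 ± 0.024, adjusted p = 0.012).

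Lpl (lipoprotein lipase) behaved differently, since its old form rose under mock. It went from 0.25 and 0.26 at 1 h to 0.46 and 0.41 at 12 h under mock, and from 0.35 and 0.21 to 0.25 and 0.15 after LPS (-0.119 ± 0.034, adjusted p = 0.019). Unscaled, its mock ratios rose as well, from 0.163 and 0.234 to 0.251 and 0.325. With the ratio of summed intensities in place of the ratio of peptide pairs, the difference for Lpl turned to 0.030. The chemokine Pf4 (-0.097 ± 0.025, adjusted p = 0.0096), the growth factor precursor Grn (-0.045 ± 0.0054, 2.4e-06) and lysozyme 2, Lyz2 (-0.043 ± 0.0057, 1.1e-05), also had lower slopes. Thbs1 and Pf4 are also proteins of platelets. The platelet markers present held 0.0086% to 0.021% of the summed M intensity of a mock run and 0.0045% to 0.017% of an LPS run, Ppbp, Gp1ba, Gp9, Vwf, Tubb1 and Treml1 had no protein group, and the part of platelet remnants in the result was not tested.

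Apoe, the main apolipoprotein that macrophages secrete, was lower on average over the matched times (-0.98 ± 0.18, adjusted p = 0.00074) but not by slope (-0.079 ± 0.053, adjusted p = 0.36). The metalloproteinase Mmp12 gave the same picture (-0.68, adjusted p = 0.00077, against -0.095 ± 0.040, adjusted p = 0.13). Counting the mean difference, 13 of the 18 secreted proteins were lower and none higher. Mmp8, a collagenase of neutrophil granules, was not tested: its old form had M/L in 3 of the 4 mock runs at 9 and 12 h and in none of the 4 LPS runs, after 12 of 12 mock and 5 of 12 LPS runs at 1 to 6 h.

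Among granulocyte proteins, which are stored in granules or the cytosol, the members moved in opposite directions. Ltf (lactoferrin, an iron-binding protein of secondary granules) stood at 3.49 and 3.77 after 1 h of LPS, 1.74 and 1.60 at 6 h and 0.94 and 1.12 at 12 h, while the mock runs went from 3.79 and 3.62 to 2.41 and 2.20. Ngp, another granule protein, fell from 2.47 and 2.44 to 0.65 and 0.64 after LPS and from 2.69 and 2.31 to 1.87 and 1.64 under mock. From 2 h on every LPS run of either protein was below both mock runs of its time, and the slope differences were -0.097 ± 0.015 (adjusted p = 4.7e-05) and -0.123 ± 0.010 (adjusted p = 1.6e-09). Lcn2, also of secondary granules, was lower on average (-0.75, adjusted p = 2.1e-06) with a slope difference of -0.060 ± 0.022 that did not pass (adjusted p = 0.083).

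S100a8 and S100a9, which pair as calprotectin in the cytosol of neutrophils and monocytes, had higher slopes instead. Old S100a9 was at 2.65 and 2.42 after 6 h of LPS and 3.01 and 2.84 under mock, so LPS was lower at that time, and at 12 h it was at 2.47 and 2.85 against 1.82 and 1.82, so LPS was higher. Its slope difference of 0.073 ± 0.0094 (adjusted p = 6.4e-06) thus came from a late fall in mock cells. The mean of the LPS replicates did not fall between 6 and 12 h. Over 1 to 6 h alone the difference was -0.0010. S100a8 followed the same course (0.051 ± 0.013, adjusted p = 0.0079; -0.0086 over 1 to 6 h). Of the 9 granulocyte markers tested, 2 had a lower slope and 2 a higher one (6.87% and 4.33% over all proteins). Without the LPS run at 12 h of replicate 2 these counts were 4 and 2. The summed M intensity of all 15 was 1.46% and 1.68% of a run at 12 h under mock and 1.74% and 2.36% after LPS. The part of a change in granulocyte number was not tested.

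Lysosomal hydrolases, the soluble enzymes that break down protein, lipid and sugar chains in lysosomes, had lower slopes for most members tested. Of 44 listed, 43 had a protein group and 36 were tested. Of these 26 had a lower slope after LPS (6.87% over all proteins) and none a higher one. The differences of all 36 lay between -0.090 and -0.022 with a median of -0.039. The steepest was Pld3, a lysosomal nuclease of endolysosomes. It went from 0.76 and 0.75 at 1 h to 0.30 and 0.27 at 12 h after LPS and from 0.65 and 0.64 to 0.53 and 0.52 under mock (-0.090 ± 0.0065, adjusted p = 5.9e-11). LPS was above mock at 1 h and below it from 2 h on.

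For most other hydrolases the difference came from a rise under mock rather than a fall after LPS. The median slope of the 36 was 0.035 under mock and -0.004 after LPS, and 31 of them had a mock slope above 0 also on the unscaled ratio. Old protein was higher after LPS for 36 of the 36 at 0.5 h, for 33 at 1 h and for 4 at 2 h, and lower for all 36 at 6, 9 and 12 h, with a median of -0.34 log2 units at 12 h. Cathepsin L, Ctsl1, went from 0.76 and 0.79 to 1.00 and 1.11 under mock and from 0.91 and 0.93 to 0.75 and 0.84 after LPS (-0.054 ± 0.0075, adjusted p = 1.7e-05). Manba (-0.049 ± 0.012), Prcp (-0.046 ± 0.0099) and Acp5 (-0.045 ± 0.012), a mannosidase, a carboxypeptidase and the tartrate-resistant phosphatase, also passed (adjusted p = 0.0052, 0.0023 and 0.016).

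New forms of some hydrolases were lower as well. H/L slopes were lower after LPS for 7 of the 36 and higher for none, where 0.915% of all proteins were lower, with a median difference of -0.069 (0.005 over all proteins). The share of M in M plus H accordingly fell faster for 1 of the 36 and more slowly for 5. The counts on M/L were 24 lower without the LPS run at 12 h of replicate 2 and 23 of 34 without the 12 h runs, but 12 without the 1 h runs, where 35 of the 36 differences were below 0, 3 over 1 to 6 h alone and 0 without scaling. Unscaled, with the replicate block and without that run, 27 were lower. Membrane proteins of the lysosome and its proton pump moved less, with 2 of 18 lower (6.87% over all proteins). Their median was -0.021 (0.005 without scaling, where the median of all proteins was 0.027). The 2 were the V-ATPase subunits Atp6v1f (-0.033 ± 0.010, adjusted p = 0.041) and Atp6v1e1 (-0.028 ± 0.0047, 0.00021). The replicate block raised this count to 6.

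The called members of the MHC class II list were enzymes of the lysosome as well. Of 8 tested, 3 had a lower slope, where 6.87% of all proteins were lower. These were Ctsl1, cathepsin S (-0.029 ± 0.0079, adjusted p = 0.015), which trims the invariant chain, and the lysosomal thiol reductase Ifi30 (-0.041 ± 0.012, 0.022). The class II chains H2-Aa and H2-Ab1 had differences of -0.026 and -0.018 and the invariant chain Cd74 one of -0.079, none of which passed. On average over the matched times old Cd74 was 0.40 log2 units lower after LPS. In the class I list, 3 of 15 had a lower slope, the trimming peptidase Erap1 (-0.034 ± 0.0097, adjusted p = 0.020) and the chaperones Calr (-0.026 ± 0.0070, 0.013) and Pdia3 (-0.021 ± 0.0067, 0.041), and Pdia3 lay at 0.0049 without scaling. Without the 1 h runs 1 protein passed in the class II list and none in the class I list.

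**Figure D4:**
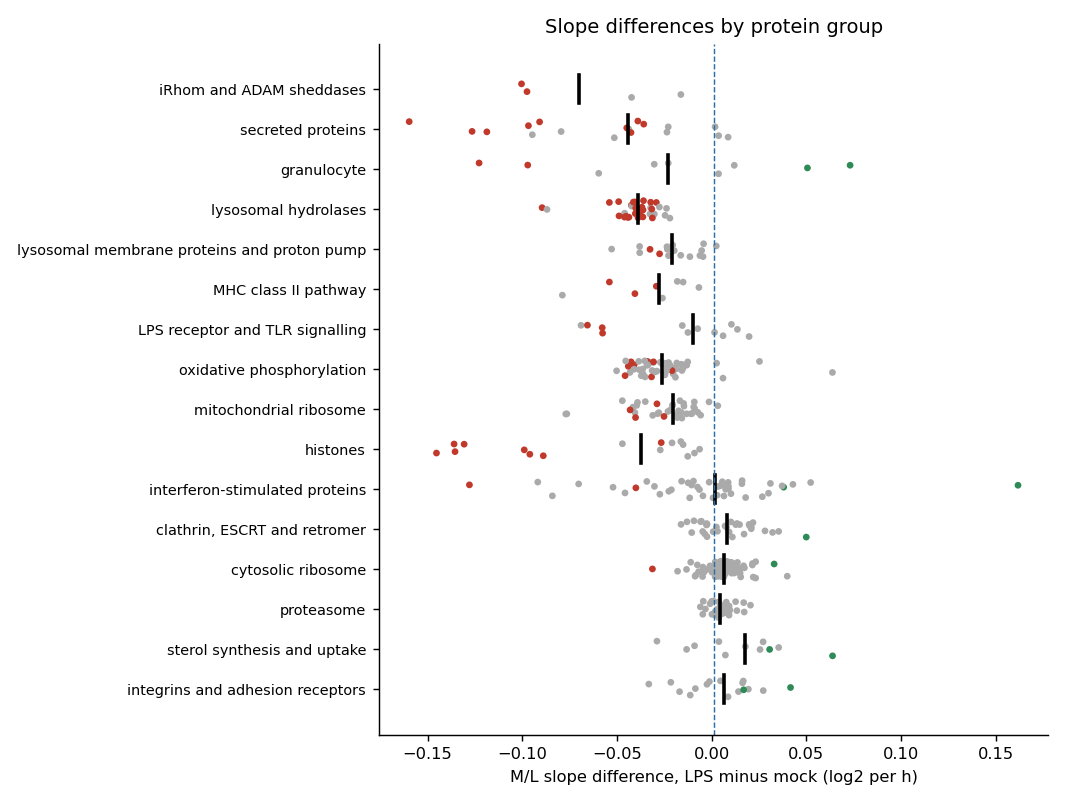
M/L slope difference, LPS minus mock, in log2 units per h (x axis) for the tested members of 16 protein lists, with 1 point per protein; red, lower; green, higher; grey, not called; black bars, list medians; dashed line, median of all 3346 proteins (0.00097). The 36 lysosomal hydrolases all lie below 0, the proteasome subunits lie between -0.0060 and 0.020, and the granulocyte list reaches from -0.12 to 0.073.

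Of the machinery that senses LPS, 12 of 29 listed proteins were tested, with a median of -0.010 (0.016 without scaling, against 0.027 for all proteins). A lower slope was found for 3 (6.87% over all proteins) and a higher one for none. These were Cd14, which hands LPS to its receptor (-0.058 ± 0.019, adjusted p = 0.042), Cd180, a relative of Toll-like receptor 4 (-0.066 ± 0.019, 0.024), and Ly86 (MD-1), which binds Cd180 (-0.058 ± 0.016, 0.020). Old Cd180 rose under mock from 0.72 and 0.53 at 1 h to 0.94 and 0.73 at 12 h and went from 0.78 and 0.65 to 0.71 and 0.52 after LPS. Without the LPS run at 12 h of replicate 2, or without the 1 h runs, none of the 3 passed. The adaptor Myd88 had a difference of -0.069 that did not pass.

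Among NF-kB proteins 2 of 10 tested had a lower slope, where 6.87% of all proteins were lower. Old Rela, the activating subunit p65, was at 0.87 and 0.87 after 1 h of LPS and at 0.59 and 0.55 at 12 h, with mock runs from 0.76 to 0.95 (median 0.83) (-0.047 ± 0.0076, adjusted p = 0.0001). From 4 h on both LPS runs were below both mock runs. Tbk1, a kinase of the interferon branch, gave -0.041 ± 0.011 (adjusted p = 0.017). The ubiquitin ligase Trim25, which acts in RNA sensing, fell to 0.51 and 0.53 at 12 h after LPS against 0.85 and 0.78 under mock (-0.065 ± 0.010, adjusted p = 7.1e-05). It was 1 of 15 ubiquitin ligases and adaptors tested, and no other passed, a share close to that of all proteins. Surface receptors with lower slopes were the adhesion receptor Cd97 (-0.082 ± 0.019, adjusted p = 0.0046), the Fc receptor Fcgr2 (-0.067 ± 0.018, 0.015) and Cd68 (-0.066 ± 0.017, 0.013), which is mainly a lysosomal protein. Cd97 and Fcgr2 were 2 of 12 tested Fc, inhibitory and paired receptors, where 6.87% of all proteins were lower. Cd68 was 1 of 12 tested scavenger, lectin and efferocytosis receptors, close to that share. Without the LPS run at 12 h of replicate 2 the calls of Fcgr2 (-0.053) and Cd68 (-0.042) were lost. Axl, a receptor for dying cells and another known substrate of sheddases, was lower on average (-0.69 ± 0.05, adjusted p = 1.2e-09) and had nearly the same slope under both treatments (-0.0092 ± 0.016, adjusted p = 0.76). Its LPS replicates were at 0.38 and 0.45 already at 1 h, against 0.66 and 0.64 under mock.

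Some mitochondrial proteins had lower slopes. In the list of oxidative phosphorylation 11 of 55 tested proteins were lower and none higher, with a median of -0.026, and in the mitochondrial ribosome 4 of 38, where 6.87% of all proteins were lower, with a median of -0.021 (0.0015 without scaling, against 0.027 for all proteins). The respiratory list was made by name pattern and holds Cox4nb, which is no respiratory chain protein and did not pass. As with the hydrolases, the median slopes of the respiratory proteins were 0.016 under mock and -0.007 after LPS. Uqcrh, a subunit of complex III, went from 0.78 and 0.87 to 1.01 and 0.99 under mock and from 0.98 and 1.03 to 0.84 and 0.80 after LPS (-0.044 ± 0.0081, adjusted p = 0.00041). Ndufa8 and Ndufs4 of complex I (-0.046 ± 0.014 and -0.043 ± 0.012), Cox6b1 and Cox5b of complex IV (-0.041 ± 0.0079 and -0.034 ± 0.0080) and Atp5e of the ATP synthase (-0.044 ± 0.011) also passed. The import receptor Tomm70a had the largest difference of any mitochondrial protein named here (-0.114 ± 0.014, adjusted p = 2.6e-06), rising from 0.96 and 1.08 to 1.49 and 1.70 under mock and falling from 1.43 and 1.47 to 0.79 and 0.97 after LPS. Of the 55, 54 were higher after LPS at 0.5 h and 36 at 1 h, and 8 of the 54 measured at 12 h. Without the 1 h runs 4 respiratory and 1 ribosomal protein were lower. With the replicate block 18 respiratory proteins were lower and 1 higher. Without replicate 2 none passed in either mitochondrial list.

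Of 16 histones tested, the proteins that package DNA, 8 had a lower slope (6.87% over all proteins) and none a higher one. The 8 were the linker histones Hist1h1a, Hist1h1b, Hist1h1c, Hist1h1d and Hist1h1e, the core histones Hist1h3b and Hist1h4a, and Hist1h2bh. Without the 1 h runs 6 were lower. All 16 were higher after LPS than under mock at 0.5 h, 15 at 1 h and 2 at 12 h. Old Hist1h1b rose under mock from 1.06 and 0.79 at 1 h to 2.08 and 1.96 at 12 h and 5.10 and 6.89 at 24 h, and went from 1.33 and 1.73 to 0.92 and 0.84 after LPS (-0.145 ± 0.023, adjusted p = 9e-05). The rise stood in the unscaled mock ratios of Hist1h1b too, from 0.685 and 0.710 at 1 h to 1.13 and 1.54 at 12 h, after the supply of M had ended.

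Hist1h3b and Hist1h4a behaved otherwise, with level mock courses and a fall after LPS. Old Hist1h4a went from 2.96 and 1.72 to 0.99 and 0.77 after LPS, and its mock replicates differed from each other more than either moved, at 2.52 and 1.63 at 1 h and 2.87 and 1.55 at 12 h (-0.131 ± 0.040, adjusted p = 0.033). Hist1h3b, with 1 unique peptide, gave -0.136 ± 0.038 (adjusted p = 0.018). The other histones tested, among them H1f0, H2afz, H2afy and H2A and H2B forms, had differences of -0.047 to -0.0064 that did not pass. Histone genes are near copies of each other, so the sharing of peptides between these protein groups is uncertain.

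The 12 lowest slope differences with a gene name and the same sign in both replicates also held proteins not described above. The lowest was Plin2, which coats lipid droplets. Its old form fell under both treatments up to 3 h, with mean values of -2.08 after LPS and -1.99 under mock on the log2 scale, and then fell no further under mock, at 0.41 and 0.29 at 12 h, while it fell on to 0.0806 and 0.0878 after LPS (-0.188 ± 0.042, adjusted p = 0.0037). Mndal, an interferon-inducible DNA-binding protein, stayed near its start up to 6 h (0.66 and 0.53 after LPS) and was at 0.30 and 0.32 at 9 h, against 0.74 and 0.73 under mock (-0.128 ± 0.020, adjusted p = 0.00012), while its new form rose faster after LPS (H/L slope difference 0.34, adjusted p = 0.00071). One of the protein groups named Lasp1, with 2 unique peptides, gave -0.182 ± 0.033 (adjusted p = 0.00051).

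The 12 highest slope differences by the same rule were those of Slfn2, Arpp19, Tbc1d5, Hmgn1, Sqstm1, S100a9, Hmgcs1, Pqbp1, Irg1, Tns1, Serpinb6 and Ubap2l, the last of which had no unique peptide. For Arpp19, an inhibitor of the phosphatase PP2A, old protein fell from 1.79 and 1.80 to 0.64 and 0.50 under mock and went from 1.52 and 1.25 to 1.61 and 1.88 after LPS (0.159 ± 0.027, adjusted p = 0.00024, 1 unique peptide). The endosomal GTPase-activating protein Tbc1d5 gave the same picture, from 1.45 and 1.27 to 0.64 and 0.47 under mock and from 1.17 and 1.09 to 1.36 and 1.30 after LPS (0.108 ± 0.027, adjusted p = 0.0083). For both proteins the LPS replicates lay below mock at 1 h and above it at 12 h.

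Hmgcs1, which makes HMG-CoA for sterol synthesis, was lost under mock and kept after LPS. Its mock replicates went from 0.92 and 0.94 to 0.55 and 0.50 and its LPS replicates from 0.85 and 0.83 to 0.79 and 0.89 (0.064 ± 0.013, adjusted p = 0.0012). By 24 h the LPS value had dropped to 0.50 and 0.51, with 0.59 and 0.43 under mock. Fdps, which makes farnesyl diphosphate further down the same pathway, was the other of 11 tested sterol proteins to pass (0.031 ± 0.0072, adjusted p = 0.0051), with a median of 0.018 over the list. Over all proteins 4.33% had a higher slope.

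For some proteins the scaled M/L had a slope above 0 after LPS. Old Sqstm1 (p62, an autophagy receptor that is itself removed by autophagy) fell from 0.20 and 0.19 to 0.17 and 0.11 under mock and went from 0.19 and 0.22 to 0.31 and 0.24 after LPS (0.083 ± 0.014, adjusted p = 0.00021). The itaconate enzyme Irg1 went from 0.15 and 0.12 to 0.23 and 0.23 after LPS, where mock runs lay from 0.12 to 0.17 (median 0.13) (0.061 ± 0.011, adjusted p = 0.00026). The H/L slope difference of Irg1 passed (0.37, adjusted p = 1.1e-05), and that of Sqstm1 did not (0.15, adjusted p = 0.22).

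On the mean of the replicates, the cytokine Il1b was lower after LPS at 1 h (-0.33 log2 units) and higher from 2 to 12 h. Its M/L was 0.0634 and 0.0836 at 1 h and 0.33 and 0.30 at 6 h of LPS. Over the matched times it lay 1.09 ± 0.17 log2 units above mock on average (adjusted p = 0.00013, limma). By slope it did not pass (0.038 ± 0.056, adjusted p = 0.72). At 24 h old Il1b was lower after LPS than under mock (-2.05 ± 0.50 log2 units, adjusted p = 0.0021, limma). The old form of the chemokine Cxcl2 was not tested, with M/L in 12 of 12 LPS and 2 of 12 mock runs at 1 to 6 h. The part of the H signal of the same runs in these M signals was not tested. H/L slopes differed for 210 of 3170 proteins (6.62%). Of the 181 with a higher H/L slope after LPS (5.71%), 17 had a higher M/L slope, 6 a lower one, and 158 neither. The 6 were Mndal, Rhbdf2, Nmes1, Gpd2, Znfx1 and Sod2.

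Hmgn1, a nucleosome-binding protein, dipped and came back. It was at 1.36 and 1.28 in the LPS replicates at 0.5 h, 0.51 and 0.73 at 2 h, 1.11 and 1.19 at 6 h and 1.79 and 1.72 at 12 h, with mock runs from 1.45 to 2.23 (median 1.63). Its positive slope difference (0.089 ± 0.020, adjusted p = 0.0028) thus described the return, and on average over the matched times it was lower after LPS (-0.65, adjusted p = 1.2e-05). With 0 and 0.5 h added and a common start, its slope difference turned to -0.060. The interferon-inducible Slfn2 had the highest difference, 0.162 ± 0.053 (adjusted p = 0.047), from mock replicates that fell from 0.18 and 0.23 to 0.12 and 0.075 while those after LPS were already at 0.11 and 0.11 at 1 h. Its values were low throughout, the treatments overlapped at 12 h, and the call was lost under 15 of 24 alternatives.

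Several large complexes showed little difference in M/L slope. No proteasome subunit of 34 tested passed (limma; 2 at an unadjusted p under 0.05), and their differences lay between -0.0060 and 0.020. With the replicate block 1 of them was higher. In the cytosolic ribosome 1 of 72 was lower (Rpl14, -0.031 ± 0.0073, adjusted p = 0.0049) and 1 higher (Rpl27a, 0.033 ± 0.0082, 0.0082), and the replicate block raised the higher count to 6. On average over the matched times 9 of the 72 were higher and 1 lower (3.83% and 7.05% over all proteins). The share of M in M plus H fell faster after LPS for 29 of 71 (12.9% over all proteins). H/L slopes were higher for 9 of 71 (5.71% over all proteins) and lower for 0. Among 44 interferon-stimulated proteins, 33 had a higher H/L slope after LPS, while M/L slopes were lower for 2 (Mndal and Znfx1) and higher for 2 (Slfn2 and Eif2ak2), a share close to that of all proteins. In the list of clathrin, ESCRT and retromer proteins 1 of 33 was higher, the cargo adaptor Dab2 (0.050 ± 0.0081, adjusted p = 0.00011). Of 16 integrins and adhesion proteins 2 were higher, the linkers Pxn (0.042 ± 0.0082, adjusted p = 0.00087) and Tln1 (0.017 ± 0.0056, 0.049). Over all proteins 4.33% were higher.

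The 24 h runs took no part in the slopes and were separate samples. Of the 230 with a lower slope, 220 had M/L at 24 h, and 219 were lower after LPS then (201 passing the limma test of that time, 13 without scaling of the runs). Of the 145 with a higher slope, 142 were measured and 136 were higher (118 passing, 3 without scaling). At 24 h 1295 of 3055 proteins passed the test (42.4%), 703 as lower (23%) and 592 as higher (19.4%). Of the proteins with no slope call 45.4% were lower and 54.6% higher. Each treatment had 2 samples at 24 h. The protocol text describes times up to 12 h and does not state how the later samples were handled.

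At 24 h old Rhbdf2 was at 0.25 and 0.30 after LPS and 0.60 and 0.52 under mock, a difference of -1.02 ± 0.16 (adjusted p = 2.7e-05). Adam17 was at 0.20 and 0.23 against 0.79 and 0.69 (-1.77 ± 0.28, adjusted p = 2.7e-05), and Csf1r at 0.28 and 0.18 against 0.69 and 0.58 (-1.48 ± 0.32, adjusted p = 0.00075). Thbs1 was at 0.28 and 0.32 against 0.75 and 0.62. Ltf was at 0.28 and 0.25 after LPS and 1.40 and 1.28 under mock. Of the 35 hydrolases measured at 24 h, 33 were lower after LPS with a median of -0.88, and Pld3 was at 0.26 and 0.21 against 0.62 and 0.62. Some proteins did not keep their slope's direction: S100a8 and Hmgn1, with higher slopes, were at -0.18 and -0.37 log2 units at 24 h. Notch2 and Plin2 were not in the 24 h counts, for want of M/L in some run at that time. On the values present, Notch2, with a higher slope, was at -0.91 log2 units at 24 h. Plin2, with a lower slope, was at -2.04 at 12 h and at -0.10 at 24 h.

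**Figure D5:**
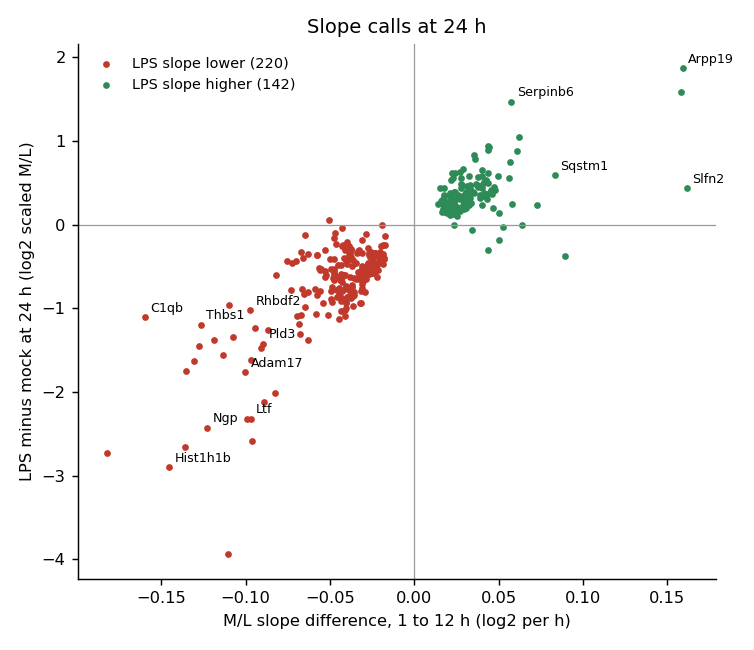
LPS minus mock difference of log2 scaled M/L at 24 h (y axis) against the slope difference from 1 to 12 h in log2 units per h (x axis) for the proteins called by slope and measured at 24 h, with 1 point per protein; red, LPS slope lower (220); green, LPS slope higher (142). Of the red points 219 lie below 0 at 24 h, and of the green points 136 lie above 0.

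Some proteins could not be given a slope because their old form was measured late under 1 treatment only. M/L was present in at least 3 of the 4 runs at 9 and 12 h under mock and in none after LPS for 12 proteins, and the other way round for 29. Beside Mmp8, the former held the ribosomal protein Mrpl33, the vesicle protein Vamp4 and the sorting nexin Snx8, which had been seen in 7, 1 and 5 of the 12 LPS runs at 1 to 6 h. The latter held the chemokines Cxcl2, Cxcl10 and Cxcl16, the integrin chain Itga4 and the DNA damage kinase Atm. Presence or absence of a ratio depends on peptide detection as well as on level, and no test was made of it.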

How the data were processed

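The deposited table holds 1 row per protein group with MaxQuant column names, per the file headers; no program version or search setting is stated. M/L and H/L are ratios over peptide pairs, with the count of pairs behind each and a summed intensity per label, all made by the authors. Of 6266 groups, 367 marked as reverse, contaminant or identified by site only were dropped. The unnormalised M/L ratio of each run was divided by the run median over 2683 complete proteins. limma 3.58.1 in R 4.3.3 fitted log2 scaled M/L on treatment and time within treatment, for proteins with M/L in at least 12 of 16 runs per treatment and 2 of the 4 at 9 and 12 h, and p-values were adjusted by Benjamini-Hochberg over all 3346. Means, H/L, the M share and 24 h were fitted alike. The script was tested on simulated data with independent noise in each run. Real runs of the same replicate number deviated together, which this simulation did not cover.

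Same-numbered LPS and mock runs deviated together (r 0.41 to 0.58 at the 8 times), so the replicate numbers pair the runs. Over all pairs of same-numbered runs, of any time or treatment, r was 0.18 to 0.64 (median 0.38). All runs of a number thus tended to deviate together. The main fit took the 32 runs as independent, and the block was fitted as an alternative. The comparison, the protein lists and the rule for named proteins (the 12 most extreme calls on each side with 1 sign in both replicates, up to 6 called members per list, Rhbdf2, Csf1r and Thbs1) were chosen with earlier results of these data known; members that did not pass, and those named by their mean difference, were chosen after their values were seen. Precision was limited by 2 replicates per time and by the number of peptide pairs. Digests with AspN and LysN were not analysed here. Gene names are those of the deposited table.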

Additional observations from a re-analysis of the deposited data

How the results depend on the processing

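The count of 375 M/L slopes fell to 2 (0 lower, 2 higher; 98 at an unadjusted p under 0.05) without scaling of the runs, to 105 with summed intensities, to 21 over 1 to 6 h, to 91 over 3 to 12 h, to 176 without the 12 h runs and, chosen after seeing the data, to 126 without the 1 h runs, where 43 of the 81 named proteins with a call lost it. It rose to 569 with the deposited normalised ratio and to 747 with the 0 and 0.5 h runs and a common start. Leaving out 1 replicate or run gave 93 to 385, the lowest without replicate 2. M plus H scaling gave 398, and the replicate block gave 557 with all 375 among them in the same direction. The H/L count of 210 went to 40 over 1 to 6 h and 428 with a common start, with 44 to 108 in a single replicate. The M share count of 463 went to 135 over 1 to 6 h, with 259 to 358 in a single replicate. The block gave 251 and 483. The mean difference count of 364 went to 21 without scaling, 870 with the normalised ratio, 172 with intensities and 65 over 1 to 6 h, and leaving out 1 replicate or the LPS run at 12 h of replicate 2 gave 23 to 306. The unscaled run median's difference was 0.0024 to 0.049 in a single replicate and turned to -0.010 without the LPS run at 12 h of replicate 2 and to -0.0018 for the M share. Among named proteins, Lpl turned to 0.030 and Stat6 to -0.0012 with intensities, Mrpl53 to 0.0070 with the normalised ratio, Mrpl12 to 0.00060 and Pdia3 to 0.0049 without scaling, Znfx1 to 0.0065, S100a8 to -0.0086 and S100a9 to -0.0010 over 1 to 6 h, and Csf1r to -0.19 and Hmgn1 to -0.060 with a common start. With the block all 91 named proteins kept their side of the threshold. At 24 h, 355 of the 362 proteins had their slope's direction, and 352 without scaling, where 13 lower and 3 higher passed at 24 h in place of 201 and 118. Apart from the shorter time spans, the fewer runs and the skipped scaling themselves, the cause of these changes was not tested.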

Other observations

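Slopes differed for single kinases, transcription factors and cell cycle proteins, where 11.2% of all proteins passed. Among 27 receptor kinases and phosphatases tested, the endoplasmic reticulum phosphatase Ptpn1 had a lower slope after LPS (-0.047 ± 0.0096, adjusted p = 0.0013, limma) and the stress kinase Mapk14 (p38 alpha) a higher one (0.029 ± 0.0066, adjusted p = 0.0036), and with the replicate block 4 were higher, Prkcd, Mapk3 and Inpp5d beside Mapk14. Of 12 myeloid transcription factors 1 passed, Stat6, which carries the interleukin 4 signal (0.033 ± 0.0095, adjusted p = 0.020; -0.0012 from summed intensities). Old Stat3 was 0.35 log2 units lower on average (adjusted p = 0.00013), with a slope difference of -0.036 that did not pass (adjusted p = 0.12). Of 22 proteins of replication and the cell cycle, the proliferation marker Mki67 was lost faster (-0.063 ± 0.014, adjusted p = 0.0031), and the helicase subunit Mcm4 (0.040) and the tubulin-binding protein Stmn1 (0.030) had higher slopes, 3 in all, with 9 at an unadjusted p under 0.05.

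No member passed by slope among 6 maturation surface proteins, 13 inflammasome and interleukin-1 proteins and 3 tetraspanins (limma; 1, 2 and 1 at an unadjusted p under 0.05); over all 3346 proteins 880 had an unadjusted p under 0.05. The mannose receptor Mrc1, an endocytic lectin, was lower on average (-0.31, adjusted p = 0.0015), with a slope difference of -0.049 that did not pass (adjusted p = 0.060). Old Rps6, a phosphorylated protein of the small ribosomal subunit, was higher on average (0.39 ± 0.040, adjusted p = 2.9e-07), with a slope difference of 0.012 (adjusted p = 0.53).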
